A study of Mus musculus with 10 samples.

Results

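Zinc handling was followed through 10 genes in muscle stem cells (MuSCs, also called satellite cells) of control and Trpm7 cKO mice. They were taken by name from a fixed list, and all 10 were found among the 24608 gene symbols of the count table. They are the metallothioneins Mt1 and Mt2, the zinc sensor Mtf1, the SLC30 family carriers Slc30a1 and Slc30a5, and the SLC39 family carriers Slc39a1, Slc39a6, Slc39a7, Slc39a10 and Slc39a14. There were 5 libraries per genotype, each made with the CEL-Seq2 protocol from 3000 sorted YFP-positive cells taken 3 days after muscle injury by cardiotoxin (CTX). CEL-Seq2 reads the 3′ end of a transcript and tags each molecule with a unique molecular identifier (UMI), so a value is a count of molecules whatever the length of the gene.

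Control mice carried Trpm7+/+ and Trpm7 cKO mice Trpm7 flox/flox, and both carried Pax7CreERT2/+ and Rosa26YFP on a C57BL6 background as adults. Mice of both genotypes received tamoxifen and then CTX, so that no library comes from uninjured muscle. The inducible Cre is driven by Pax7, a transcription factor of MuSCs, and deletes Trpm7 only in cells that express it. The libraries hold many cells each, and fewer cells of a type and less RNA per cell cannot be told apart.

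Zinc enters the cytosol through carriers of the SLC39 (ZIP) family and leaves it, outward or into organelles, through carriers of the SLC30 (ZnT) family. Metallothioneins are small cysteine-rich proteins that bind zinc and copper, and MTF1 is a zinc finger transcription factor that binds metal response elements and raises metallothionein transcription when free zinc increases. TRPM7 is an ion channel fused to a kinase, and its pore passes zinc and calcium as well as magnesium.

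Control libraries held 914361 to 1097709 counts and Trpm7 cKO libraries 205986 to 581121, so every Trpm7 cKO library was the shallower. All 12 MuSC markers were tested in edgeR, and in Trpm7 cKO libraries 7 were higher, 2 lower and 3 not called at an adjusted p below 0.05. Over all genes tested, 24.6% were called higher and 24.1% lower. The summed level of the 12 markers was 3091 to 3562 CPM in control and 2784 to 4307 CPM in Trpm7 cKO libraries. Pax7 was in control libraries at 206 ± 33.7 normalized CPM (SD, n = 5) and in Trpm7 cKO ones at 474 ± 122 (SD, n = 5), where CPM is the count scaled to a common library total. The 2 that fell were the myogenic factor Myod1, from 744 ± 111 to 181 ± 36.6 CPM, and the integrin Itga7, from 375 ± 29.3 to 248 ± 29.8 CPM (SD, n = 5). All 21 leukocyte markers that could be tested rose in Trpm7 cKO libraries, with a summed level of 421 to 737 CPM in control and 1551 to 6671 CPM in Trpm7 cKO libraries. Some of them, Ptprc included, had enough counts to be tested only through the Trpm7 cKO libraries. For these a rise was partly a condition of being tested. Of the 30 listed, 28 were in the table, among them the defining markers Ptprc at 8.0 ± 4.70 against 56.7 ± 26.1 CPM and Lyz2 at 126 ± 35.0 against 1158 ± 500 CPM (SD, n = 5), while Cd3e and Nkg7 were at 0 in all control libraries. Markers of endothelium summed to 5.36 to 55.6 CPM in control and 105 to 563 CPM in Trpm7 cKO libraries, those of fibroadipogenic cells to 1449 to 2662 against 2781 to 5305 CPM, and those of erythroid cells to 1.99 to 178 against 146 to 3274 CPM. Trpm7 itself was at 76.9 ± 9.97 CPM in control libraries and 71.4 ± 22 CPM in those of Trpm7 cKO (SD, n = 5 each), but 3′ reads come from the end of the transcript and do not check whether an exon elsewhere was deleted. The library names of Trpm7 cKO replicates 4 and 5 share a number whose meaning is not stated. If replicates are not from separate animals, p-values measure only the spread between these libraries.

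In Trpm7 cKO libraries 4 of the 10 genes were higher, namely Mt1, Mt2, Slc39a1 and Slc39a14, and 0 were lower. The quasi-likelihood test of edgeR was used, with p-values adjusted over 7753 genes after Benjamini and Hochberg, and at an adjusted p below 0.05 it called 24.6% of all genes higher and 24.1% lower, 48.7% in all. Of the 10 genes, 9 were tested and 5 of those did not pass the threshold. Slc39a7 had too few counts to be tested. At an unadjusted p below 0.05 the count lower was also 0, and DESeq2 and voom gave 4 higher and 0 lower as well. Over the 9 genes the log2 fold change had a median of 0.18, against -0.01 over all genes tested. In 2 of the 9, Mt2 and Slc39a14, every Trpm7 cKO library lay above every control library, which was the case for 16.6% of all genes, while 17.9% lay wholly below, 34.5% in either direction. The same 2 genes also exceeded a log2 fold change of 1.5, as did 8.49% of all genes with an adjusted p below 0.05, and 3.53% passed the same threshold downward.

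**Figure D1:**
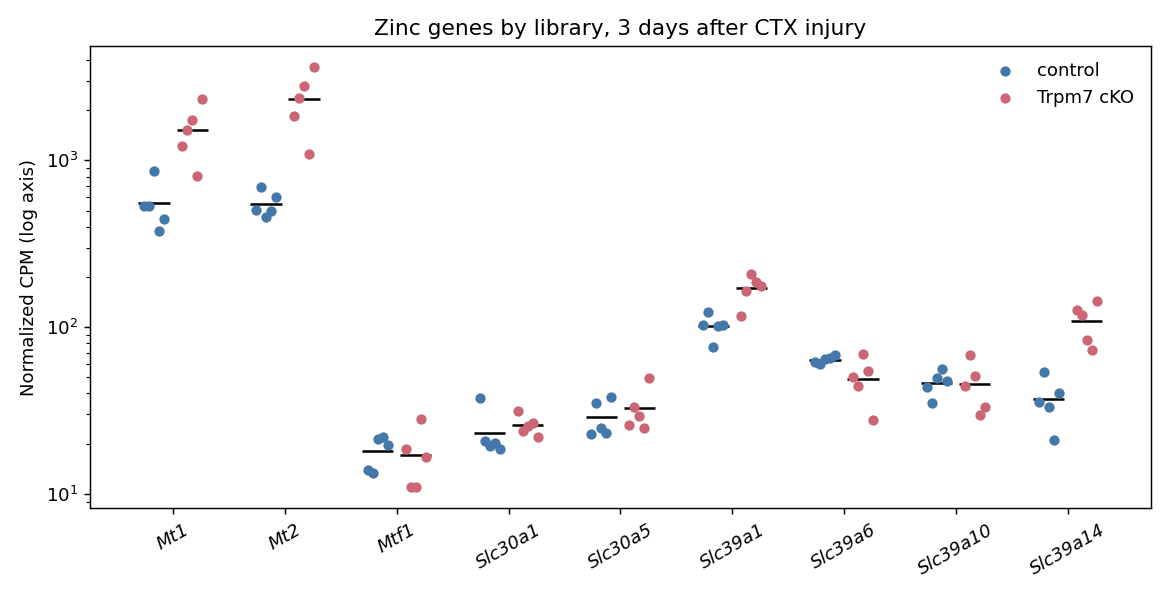
Normalized CPM (log axis) of the 9 tested zinc genes, with 1 point per library and a black bar at the mean of the 5 libraries of a genotype. Mt2 and Slc39a14 points of the 2 genotypes do not overlap. Those of Mt1 and Slc39a1 overlap by 1 library, and so do those of Slc30a1 and Slc39a6, which did not pass the test. Points of Mtf1, Slc30a5 and Slc39a10 are mixed.

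Mt2 changed most among the 10 genes. It had 501, 690, 458, 496 and 603 normalized CPM in control replicates 1 to 5, and 1857, 2378, 2773, 1087 and 3631 CPM in Trpm7 cKO replicates 1 to 5. The lowest Trpm7 cKO library was above the highest control library, and the Trpm7 cKO libraries were spread more widely. Means were 550 ± 95.1 CPM (SD, n = 5) and 2345 ± 956 CPM (SD, n = 5), a 4.24-fold difference with a log2 fold change of 2.09 (SE 0.25, 95% interval 1.56 to 2.61, adjusted p = 4.76e-06 in edgeR). Raw Mt2 counts, before any scaling, were 504, 668, 427, 494 and 521 in the control and 1005, 1292, 759, 656 and 658 in the Trpm7 cKO libraries, and the latter libraries held fewer counts in all. These raw counts overlapped, since Trpm7 cKO replicates 4 and 5 were below control replicate 2.

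Mt1, the neighbouring metallothionein gene, rose less. Its normalized CPM was 534, 533, 865, 378 and 447 in control replicates 1 to 5 and 1225, 1511, 1743, 805 and 2323 in Trpm7 cKO replicates 1 to 5. Control replicate 3 stood above Trpm7 cKO replicate 4, and every other Trpm7 cKO library was above every control library. Means of 552 ± 187 CPM (SD, n = 5) and 1521 ± 569 CPM (SD, n = 5) gave a 2.74-fold difference and a log2 fold change of 1.45 (SE 0.27, 95% interval 0.88 to 2.03, adjusted p = 0.000450 in edgeR). Raw Mt1 counts, in contrast with those of Mt2, covered much the same range in both genotypes, at 377 to 807 in control and 421 to 821 in Trpm7 cKO libraries. Together Mt1 and Mt2 made up 0.0807% to 0.124% of the counts of a control library and 0.197% to 0.524% of the counts of a Trpm7 cKO library.

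Both genes lie on the plus strand of chromosome 8 in GRCm38, Mt2 at chr8:94172664-94173568 and Mt1 at chr8:94179082-94180327, with 5513 bases between them. The core of the metal response element, TGCACNC or TGCGCNC, was searched on both strands of the RefSeq promoter windows of GRCm38.p6, which reach from 250 bases before to 50 bases from the annotated start. At least 1 match was present in 25.7% of 32851 windows of all genes, and 3 or more in 1.97%. Windows were given for 8 of the 10 genes, and 4 held a match, with 4 in Mt2, 3 in Mt1, 2 in Slc30a1 and 1 in Slc30a5. Of the other genes that rose, Slc39a1 had 0 matches in its window and Slc39a14 had no window. The stretches below show the matches in capitals for the 2 metallothioneins that rose and for Slc30a1, which holds the same core but did not pass the test. Each is read along the plus strand, and capitals beginning with G are the reverse complement of the core. A match describes the letters and is neither a binding site nor a cause.
Mt1 chr8:94179055-94179084: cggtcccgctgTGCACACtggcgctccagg
Mt1 chr8:94179089-94179118: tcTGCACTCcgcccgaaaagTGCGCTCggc
Mt2 chr8:94172384-94172413: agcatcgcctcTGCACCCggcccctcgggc
Mt2 chr8:94172479-94172508: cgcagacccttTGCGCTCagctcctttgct
Mt2 chr8:94172557-94172586: ggggggagggcGTGTGCAggctctgtccca
Mt2 chr8:94172611-94172640: gaattcgggtcGTGCGCAggcccaggggcg
Slc30a1 chr1:191906727-191906756: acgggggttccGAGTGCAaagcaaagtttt
Slc30a1 chr1:191906800-191906829: gcctccgggccGAGCGCAgtcgccgcggac

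The Mt1 and Mt2 counts of a library give a ratio that does not depend on how libraries are scaled. There were 1.07, 0.772, 1.89, 0.763 and 0.741 Mt1 counts per Mt2 count in control replicates 1 to 5. The Trpm7 cKO replicates 1 to 5 had 0.660, 0.635, 0.628, 0.741 and 0.640. Trpm7 cKO libraries were close to each other and at or below the lowest control library, whereas control libraries ranged widely, with Mt1 the more abundant in replicates 1 and 3. The log2 ratio averaged -0.04 ± 0.58 (SD, n = 5) over control libraries and -0.60 ± 0.10 (SD, n = 5) over those of Trpm7 cKO. The difference was -0.56 (two-sided exact permutation test, p = 0.00794, which is the smallest this design allows). This p rests on the order of 2 nearly equal libraries, Trpm7 cKO replicate 4 at 0.740854 and control replicate 5 at 0.740883. The test does not separate a difference in spread from one in the mean. Control replicate 3 weighed on this value, as the difference was -0.32 without it (two-sided exact permutation test, p = 0.0159). Leaving out Trpm7 cKO replicate 1, 2, 3 or 5 kept the difference at -0.56 to -0.55 but gave p = 0.0556 each time in the same exact permutation test, which misses the threshold of 0.05. A noncoding gene on the opposite strand, Gm45774, covers 344 of the last 500 bases of the Mt2 transcript and had at most 6 counts in a library. The strand setting of the counting is not given in the sources used here.

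**Figure D2:**
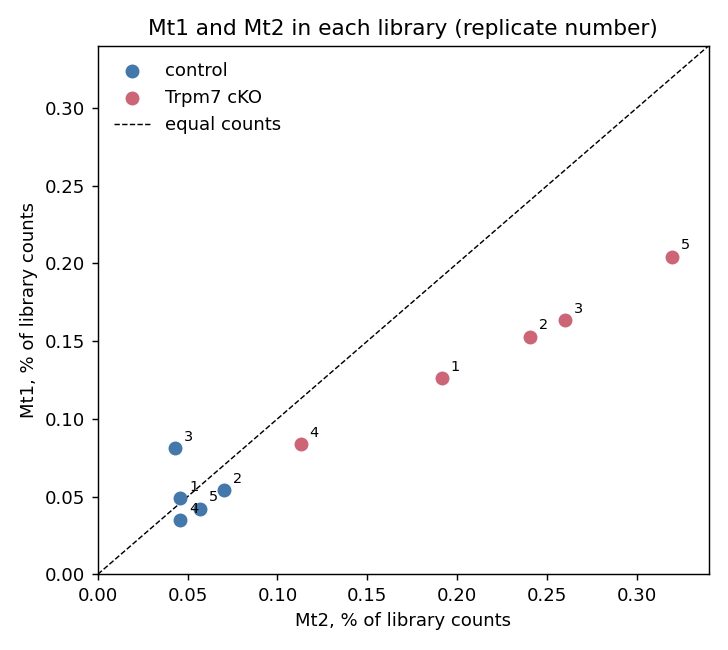
Mt1 against Mt2 as a percentage of the counts of each library, with replicate numbers beside the points and a dashed line where both genes have equal counts. All 5 Trpm7 cKO libraries and control replicates 2, 4 and 5 lie below the line, and control replicates 1 and 3 lie above it.

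The profiles most like those of the 2 metallothioneins were sought across the 10 libraries after the genotype mean had been removed, among 3762 genes with a mean of at least 50 CPM. For Mt2, the 5 genes with the highest Pearson correlation were Pdlim4 (0.970), Crebbp (0.969), Klf9 (0.965), Ccnl1 (0.957) and Eif4b (0.955). For Mt1, they were Sbno1 (0.920), Dcaf8 (0.909), Creb1 (0.895), Med13 (0.895) and Ski (0.889). Mt1 and Mt2 had an r of 0.67 with each other by the same measure. The values above are the highest of 3762 and are no yardstick for a pair named in advance. The points share library depth and composition, and the correlations are a description of these 10 libraries.

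Mtf1, the sensor through which zinc acts on metallothionein genes, was measured at a low level. It had 13.9, 13.4, 21.4, 22.1 and 19.7 CPM in control replicates 1 to 5 and 18.5, 11, 11, 28.2 and 16.6 CPM in Trpm7 cKO replicates 1 to 5. The libraries of both genotypes were mixed. The log2 fold change was -0.01 (SE 0.31, 95% interval -0.66 to 0.65, adjusted p = 0.986 in edgeR), so that a change of either sign within this interval was not detectable at this depth. Only 3 to 17 Mtf1 counts lay behind each Trpm7 cKO value. The last 500 bases of its transcript are covered on the opposite strand by 1110065P20Rik, which had 2 counts in all libraries together.

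Among the carriers that bring zinc into the cytosol, Slc39a14 and Slc39a1 rose. Slc39a14 (ZIP14) also carries iron and manganese and is located at chr14:70303469-70351425 on the minus strand. It had 35.8, 53.7, 33.2, 21.1 and 40.5 CPM in control replicates 1 to 5 and 127, 118, 84.0, 72.9 and 143 CPM in Trpm7 cKO replicates 1 to 5. The lowest Trpm7 cKO library was above the highest control library. Means were 36.9 ± 11.8 CPM (SD, n = 5) and 109 ± 29.7 CPM (SD, n = 5), a 2.90-fold difference with a log2 fold change of 1.54 (SE 0.23, 95% interval 1.05 to 2.02, adjusted p = 1.91e-05 in edgeR). The values rest on 21 to 52 counts per control library and 23 to 69 per Trpm7 cKO library.

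Slc39a1 (ZIP1), a zinc importer of the cell surface, lies at chr3:90248172-90253612 on the plus strand. Its level was 102, 124, 76.1, 101 and 103 CPM in control replicates 1 to 5 and 116, 164, 208, 187 and 177 CPM in Trpm7 cKO replicates 1 to 5. Trpm7 cKO replicate 1 fell below control replicate 2, and the other 4 Trpm7 cKO libraries were above all control libraries. The log2 fold change of 0.73 (SE 0.17, 95% interval 0.37 to 1.09, adjusted p = 0.00143 in edgeR) corresponds to a 1.66-fold difference between means of 101 ± 16.9 and 170 ± 34.3 CPM (SD, n = 5).

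Slc39a6 (ZIP6) and Slc39a10 (ZIP10), closely related importers of the plasma membrane, did not pass the test. Slc39a6 had 61.7, 59.9, 64.3, 65.3 and 68.3 CPM in control replicates 1 to 5 and 49.9, 44.2, 69.4, 54.7 and 27.6 CPM in Trpm7 cKO replicates 1 to 5. In 4 of the 5 Trpm7 cKO libraries the level was below all control libraries, and in replicate 3 it was above them all. Its log2 fold change was -0.35 (SE 0.19, 95% interval -0.74 to 0.05, adjusted p = 0.136 in edgeR). With a filter of 1 CPM in 5 libraries the value was -0.52 and the adjusted p 0.0386. Slc39a10 had 43.8, 35.1, 49.3, 56.2 and 47.5 CPM in control replicates 1 to 5 and 44.3, 68.1, 51.2, 29.8 and 33.1 CPM in Trpm7 cKO replicates 1 to 5. Its highest and lowest values were both found among Trpm7 cKO libraries, on either side of control. Its log2 fold change was -0.01 (SE 0.23, 95% interval -0.48 to 0.47, adjusted p = 0.982 in edgeR).

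Slc39a7 (ZIP7) releases zinc from the endoplasmic reticulum. It had 1 count in control replicate 5, 1 count in Trpm7 cKO replicate 4 and 0 in each of the other 8 libraries. Over the summed counts of a genotype these single counts correspond to 0.198 CPM in control (exact Poisson 95% interval 0.00502 to 1.11) and 0.467 CPM in Trpm7 cKO libraries (0.0118 to 2.60), which cover counting error only. In the GENCODE annotation of GRCm38, Slc39a7 lies at chr17:34028269-34031682, and all of the last 500 bases of its transcript are covered by exons of Gm20427, a gene on the same strand at chr17:34026034-34031580. The neighbour H2-Ke6, which Gm20427 also overlaps, had 0 or 1 count per library. How the counting treated reads that fall on more than 1 gene is not given in the sources used here, and these counts do not give the expression of Slc39a7.

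The 2 carriers that remove zinc from the cytosol did not pass the test either. Slc30a1 (ZnT1) exports zinc across the plasma membrane and is a classical target of MTF1. Its level was 37.8, 20.7, 19.3, 20.1 and 18.5 CPM in control replicates 1 to 5 and 31.4, 23.9, 25.6, 26.5 and 22.1 CPM in Trpm7 cKO replicates 1 to 5. Control replicate 1 was the highest of all libraries, and the other 4 control libraries were below all Trpm7 cKO libraries. The log2 fold change was 0.18 (SE 0.27, 95% interval -0.38 to 0.73, adjusted p = 0.613 in edgeR), and it was 0.43 without control replicate 1. Slc30a5 (ZnT5), which loads zinc into the early secretory pathway, had 22.9, 35.1, 24.7, 23.1 and 38.2 CPM in control replicates 1 to 5 and 25.9, 33.1, 29.2, 24.9 and 49.7 CPM in Trpm7 cKO replicates 1 to 5. These ranges overlapped for most libraries. Its log2 fold change was 0.08 (SE 0.25, 95% interval -0.44 to 0.61, adjusted p = 0.825 in edgeR).

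The other genes of both carrier families and the other metallothioneins gave 19 symbols, of which 15 were in the table and 6 had enough counts to be tested. One was higher and 2 were lower in Trpm7 cKO libraries, and the median log2 fold change of the 6 was -0.06. With 3 of 6 called, the share was close to the 48.7% of all genes called in either direction. Slc30a4 (ZnT4), a carrier of endosomes and lysosomes, fell from 102 ± 15.1 to 49.1 ± 11.7 CPM (SD, n = 5), with a log2 fold change of -1.09 (SE 0.19, adjusted p = 9.92e-05 in edgeR). Slc39a9 (ZIP9) fell from 115 ± 23.2 to 69.0 ± 5.80 CPM (SD, n = 5), with a log2 fold change of -0.75 (SE 0.17, adjusted p = 0.00132 in edgeR). Slc30a9 (ZnT9), a zinc exporter of mitochondria, rose from 23.9 ± 4.75 to 40.6 ± 6.33 CPM (SD, n = 5), with a log2 fold change of 0.74 (SE 0.22, adjusted p = 0.00994 in edgeR). For each of the 3, the libraries of both genotypes did not overlap, as for 34.5% of all genes. Slc30a7, Slc39a11 and Slc39a13 did not pass the test.

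**Figure D3:**
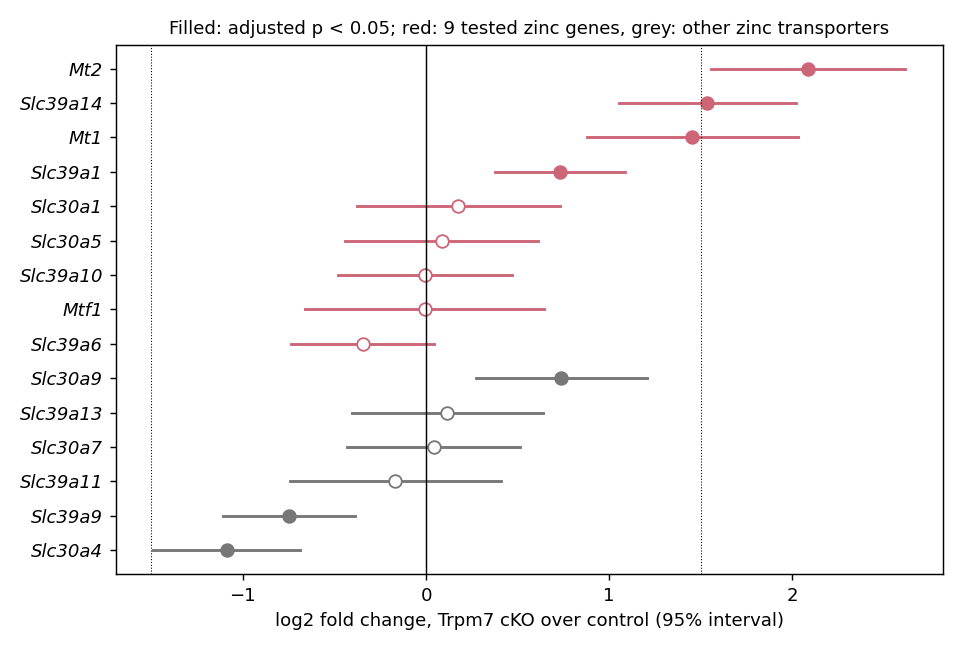
Log2 fold change of Trpm7 cKO over control with its 95% interval for the 9 tested zinc genes (red) and the 6 other tested zinc transporters (grey), filled where the adjusted p in edgeR was below 0.05, with dotted lines at 1.5 on either side. On the right, 4 red points from 0.73 to 2.09 and the grey point of Slc30a9 at 0.74 are filled. On the left, the grey points of Slc30a4 at -1.09 and Slc39a9 at -0.75 are filled.

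Other genes reported as targets of MTF1 moved in both directions. Of 7 symbols listed, 6 were in the table and 4 were tested, with a median log2 fold change of 0.84. Of the 4, 2 were higher and 1 lower, where 24.6% of all genes were called higher and 24.1% lower. Csrp1, a LIM domain protein, rose from 13.8 ± 7.26 to 62.8 ± 21.2 CPM (SD, n = 5), with a log2 fold change of 2.10 (SE 0.31, adjusted p = 1.84e-05 in edgeR). Csrp1 had enough counts to be tested only through the Trpm7 cKO libraries, so that its rise was partly a condition of its being tested. Ndrg1, a stress- and hypoxia-responsive gene, rose from 62.3 ± 11.4 to 199 ± 39.4 CPM (SD, n = 5), with a log2 fold change of 1.64 (SE 0.17, adjusted p = 2.94e-07 in edgeR). Gclc, the catalytic subunit of the enzyme that starts glutathione synthesis, fell from 92.3 ± 12.0 to 49.2 ± 11.2 CPM (SD, n = 5), with a log2 fold change of -0.91 (SE 0.18, adjusted p = 0.000395 in edgeR). Selenow, a selenoprotein, had a log2 fold change of 0.04 and did not pass. The counts were 1 higher and 2 lower per 3000 sorted cells, where 4.9% of all genes were higher and 66.6% lower. With the mean level of the leukocyte markers as a covariate in edgeR, 0 were called in either direction. At an unadjusted p below 0.05, 1 was higher. In that fit 4.45% of all genes were called higher and 1.46% lower at an adjusted p below 0.05.

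The summed level of the leukocyte markers was also higher in Trpm7 cKO libraries and did not overlap between genotypes. In Trpm7 cKO replicates 1 to 5 the sum was 3932, 1551, 3935, 6671 and 6230 CPM. The libraries with the highest sums, replicates 4 and 5, were at opposite ends for Mt1, Mt2 and Slc39a14, replicate 4 with the lowest and replicate 5 with the highest levels of the 5. For Slc39a1 these replicates lay side by side, at 187 and 177 CPM. Replicate 2, with the lowest sum, was in between. The part of leukocytes in the rise of the zinc genes was not tested by these orders. When leukocyte markers, as their mean log2 CPM, entered edgeR as a covariate, 0 of the 9 genes were called, at log2 fold changes of 1.49 for Mt1 (adjusted p = 0.333), 1.90 for Mt2 (adjusted p = 0.123), 1.54 for Slc39a14 (adjusted p = 0.140) and 0.31 for Slc39a1 (adjusted p = 0.757). At an unadjusted p below 0.05, 3 of the 9 were higher in that fit, namely Mt2 (95% interval 0.46 to 3.34), Slc39a14 and Slc39a10. In this fit 345 genes (4.45%) were called higher and 113 (1.46%) lower over the whole table. The covariate cannot be told apart from genotype by its range, as it did not overlap between them.

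**Figure D4:**
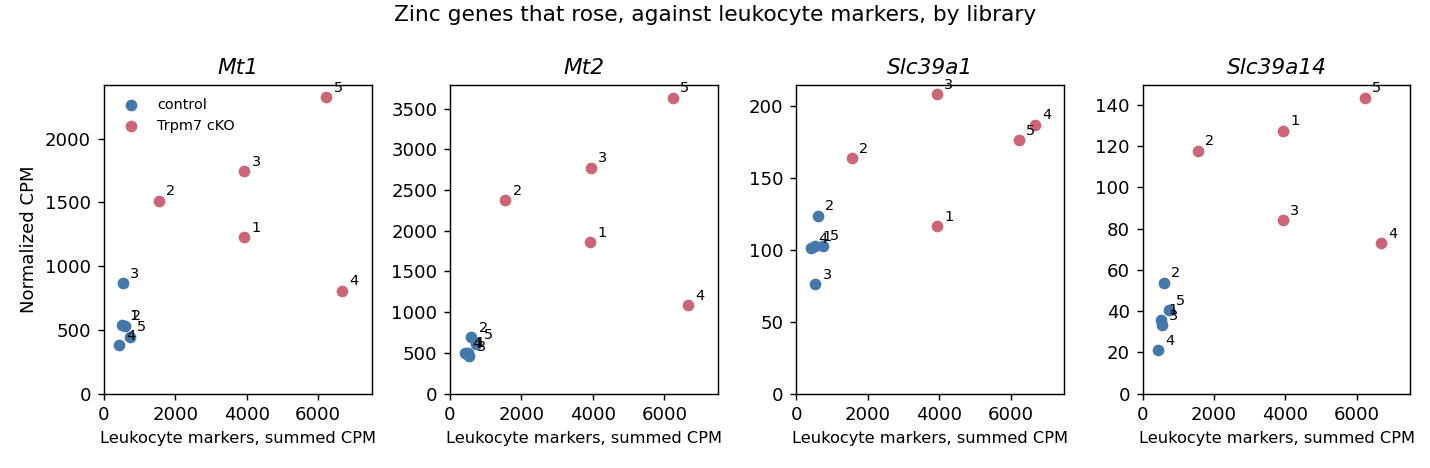
Normalized CPM of the 4 zinc genes that rose against the summed CPM of the leukocyte markers, with 1 point per library and its replicate number. Control libraries lie at 421 to 737 CPM on the horizontal axis and Trpm7 cKO libraries at 1551 to 6671 CPM, where replicates 4 and 5, the farthest to the right, are the lowest and the highest Trpm7 cKO library for Mt1, Mt2 and Slc39a14.

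Normalized CPM compares a gene with the rest of its library, and the direction of several genes depended on that choice. When counts were left as counts per 3000 sorted cells, all genes together moved to a median log2 fold change of -1.15, and in edgeR 0 of the 9 genes were higher, or 1 at an unadjusted p below 0.05, and 5 were lower. This scale does not remove the sequencing depth of a library, so that it is not a measure of RNA per cell. On this scale 4.9% of all genes were called higher and 66.6% lower, so that 5 of 9 lower is not above the background. The 4 genes that rose in normalized CPM did not pass the test on this scale, Mt2 at 0.74 (adjusted p = 0.0621 in edgeR), Slc39a14 at 0.37 (adjusted p = 0.375), Mt1 at 0.13 (adjusted p = 0.757) and Slc39a1 at -0.45 (adjusted p = 0.271). The 5 called lower were Mtf1, Slc30a1, Slc30a5, Slc39a6 and Slc39a10, at -1.49 to -0.97. Per sorted cell, there were 0.142 to 0.223 Mt2 counts in control and 0.219 to 0.431 in Trpm7 cKO libraries, and 0.126 to 0.269 Mt1 counts in control and 0.140 to 0.274 in Trpm7 cKO libraries. When libraries were scaled on the summed MuSC markers, the median of all genes was -0.18, and the 4 genes that rose still did so, Slc39a1 with an adjusted p of 0.0341 in edgeR.

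**Figure D5:**
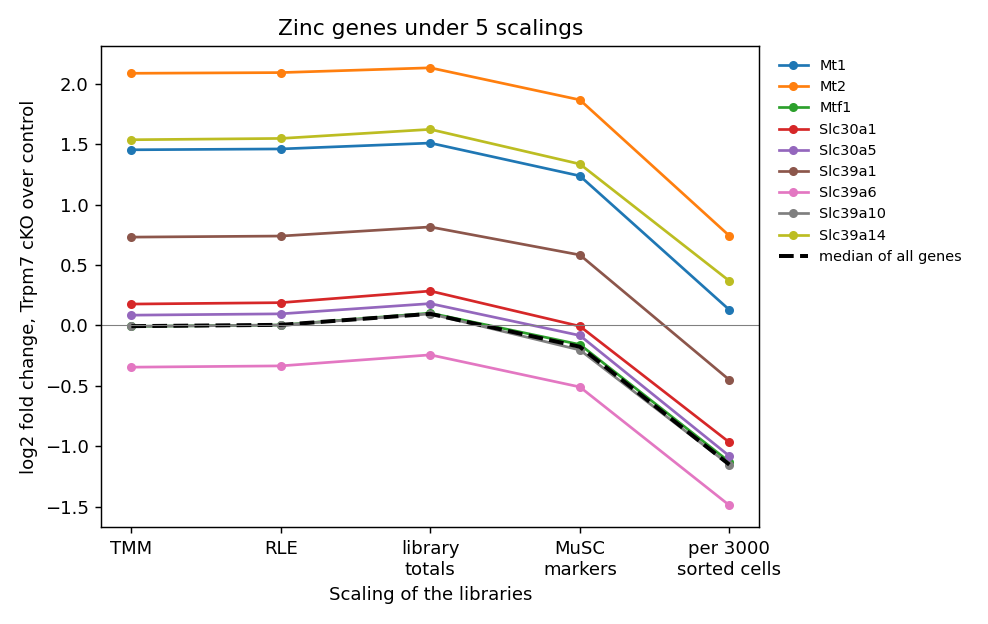
Log2 fold change of Trpm7 cKO over control for the 9 tested zinc genes (colours) and the median of all genes tested (dashed black) under 5 scalings of the libraries. All lines fall together from the MuSC marker scaling to counts per 3000 sorted cells, where the median reaches -1.15. A scaling moves all genes of a library alike, so that the distances between the lines are nearly fixed.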

How the data were processed

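UMI counts per gene were deposited by the authors as whole numbers, without normalization. Per the labels and methods, the authors used UMI-tools 1.1.4, Trim Galore 0.6.10, HISAT2 2.2.1 with GRCm38 and featureCounts 2.0.6. The annotation release and strand setting are not given in the sources used here. Of 24620 entries, 12 repeated a symbol, and the one with the larger total was kept. Columns were mapped to libraries by their labels. No 2 libraries of the same genotype were alike within counting noise, and each was kept.

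Counts were tested with edgeR 4.0.16 in R 4.3.3, after filterByExpr with a minimum count of 10 and minimum total of 15, using TMM factors, a robust quasi-likelihood fit with genotype as the only term and Benjamini-Hochberg adjustment over 7753 genes. CPM values are normalized by the same factors. The Mt1 to Mt2 ratio was tested by exact permutation over libraries. Gene positions came from the GENCODE annotation and promoter windows from RefSeq. The tests were checked on simulated data.

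The 10 genes and all lists were chosen with earlier results of these data known, so that the lists are not independent evidence. The genes named are the 10, members of the fixed lists with an adjusted p below 0.05, a few others of those lists, defining markers, and the 5 genes most correlated with Mt1 and Mt2. Selenow, Slc30a7, Slc39a11, Slc39a13, Cd3e, Nkg7, Trpm7 and genes that overlap a listed gene were named after their values were seen. Alternatives were DESeq2 1.42.0, voom of limma 3.58.1, other scalings, filters and thresholds, thinned counts, a leukocyte covariate, the replicate number as a block, each library left out in turn and, chosen after seeing the data, Trpm7 cKO replicates 4 and 5 summed.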

Additional observations from a re-analysis of the deposited data

Results flagged for a closer look

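Slc30a1 in control replicate 1 stood at 37.8 normalized CPM, far from the other 4 control libraries, which were at 18.5 to 20.7 CPM. The gap was 0.889 of the range of the group, above Dixon's critical value of 0.71 for 5 samples. Among 20 groups examined in this way, chance flags about 1 in 20.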

How the results depend on the processing

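Leaving out each library in turn left the counts at 4 genes higher and 0 lower among the 9 tested, and 1 higher and 2 lower among the other zinc transporters. The genes higher numbered 0 per 3000 sorted cells, 0 with the leukocyte covariate and 2 with a log2 fold change above 1.5, and those lower numbered 5 per sorted cell and 1 with a filter of 1 CPM in 5 libraries. Among the other zinc transporters, those higher were 0 in DESeq2, with MuSC marker scaling, per sorted cell, with thinned counts and with the leukocyte covariate, and those lower were 5 per sorted cell and 0 with the covariate. Some log2 fold changes changed sign. Mtf1 was at 0.0024 in voom, 0.0034 with RLE factors, 0.10 with library totals and -0.35 to 0.15 with a library left out. Slc30a1 was at -0.0066 with MuSC marker scaling, -0.97 per sorted cell and -0.017 without a filter. Slc30a5 was at -0.083 with MuSC marker scaling, -1.08 per sorted cell, -0.11 without a filter, -0.094 with the 1 CPM filter, -0.34 with the covariate and -0.028 to 0.22 with a library left out. Slc39a1 was at -0.45 per sorted cell. Slc39a10 was at 0.0028 with RLE factors, 0.096 with library totals, 1.49 with the covariate, 0.020 with Trpm7 cKO replicates 4 and 5 summed and -0.25 to 0.15 with a library left out. The cause of these changes was not tested. The log2 ratio of Mt1 to Mt2 ranged from -0.66 to -0.32 with a library left out, with an exact permutation p of up to 0.0556. With same-numbered libraries as a replicate block the difference was -0.56 (exact sign-flip p = 0.0625, the smallest that 5 pairs allow). Deviations of same-numbered libraries correlated at -0.12 to 0.18, and 1 of 5 correlated best with its own number. These values showed no clear pairing by number but cannot exclude a weak one. The block changed none of the counts above. Libraries held as few as 205986 counts, and 3 to 17 Mtf1 counts per Trpm7 cKO library leave its change, like that of Slc30a1, known only within the intervals given.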

Other observations

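Copper, the other metal bound by metallothioneins, is handled by a separate set of genes. Of 9 such genes in the table, 6 were tested in edgeR. In Trpm7 cKO libraries 0 were higher, also at an unadjusted p below 0.05 and in DESeq2 and voom. Another 2 were lower, and the median log2 fold change of the 6 was -0.33. Over all genes tested in edgeR, 24.6% were called higher and 24.1% lower. Per 3000 sorted cells 6 of the 6 were lower, where 66.6% of all genes were. With the leukocyte covariate 0 were called in either direction, also at an unadjusted p below 0.05. In that fit 4.45% of all genes were called higher and 1.46% lower. Sod1, the copper and zinc superoxide dismutase, fell from 556 ± 32.8 to 427 ± 36.7 CPM (SD, n = 5), with a log2 fold change of -0.39 (adjusted p = 0.0143 in edgeR), and its libraries did not overlap. Slc31a1, the copper importer of the cell surface, fell from 43.9 ± 9.08 to 26.2 ± 7.95 CPM (SD, n = 5), with a log2 fold change of -0.65 (adjusted p = 0.0290 in edgeR), and its libraries overlapped.

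Metallothionein genes are also known to respond to glucocorticoids. Of 10 genes of the glucocorticoid response, 8 were tested, and 7 were higher and 1 lower in Trpm7 cKO libraries. Their median log2 fold change was 1.16. Over all genes tested in edgeR, 24.6% were called higher and 24.1% lower. Per 3000 sorted cells 1 was higher and 1 lower, where 4.9% of all genes were higher and 66.6% lower. With the leukocyte covariate 2 were higher and 0 lower, with 0 lower also at an unadjusted p below 0.05. In that fit 4.45% of all genes were called higher and 1.46% lower. The circadian repressor Per1 rose from 14 ± 3.49 to 95.2 ± 18.7 CPM (SD, n = 5), with a log2 fold change of 2.72 (adjusted p = 2.16e-08 in edgeR). Per1 had enough counts to be tested only through the Trpm7 cKO libraries, so that its rise was partly a condition of its being tested. Klf9, a Kruppel-like factor, rose from 126 ± 25.2 to 427 ± 149 CPM (SD, n = 5), with a log2 fold change of 1.72 (adjusted p = 1.74e-06 in edgeR). Tsc22d3, which encodes the leucine zipper protein GILZ, rose from 56.6 ± 8.42 to 116 ± 34.6 CPM (SD, n = 5), with a log2 fold change of 0.97 (adjusted p = 0.000318 in edgeR). Fkbp5, a co-chaperone of the glucocorticoid receptor, rose from 23.3 ± 4.79 to 50.7 ± 23.1 CPM (SD, n = 5) with libraries that overlapped, at a log2 fold change of 1.03 (adjusted p = 0.00275 in edgeR). Sgk1, a kinase of the same response, fell from 845 ± 62.4 to 618 ± 59.0 CPM (SD, n = 5), with a log2 fold change of -0.45 (adjusted p = 0.00661 in edgeR). The part of leukocytes in these differences was not tested, and neither was a part of glucocorticoids in these or in the rise of Mt1 and Mt2.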
